A study of Homo sapiens with 28 samples.

Results

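The genes described here are heterogeneous nuclear ribonucleoproteins (hnRNPs) and other RNA-binding regulators of splicing that stand beside HNRNPL, one of the factors knocked down in the study. The list names 40 genes and uses no measured value as its rule. Of these, 36 were measured by a probeset with exactly 1 gene symbol, out of 18417 genes measured that way. HNRNPA3, HNRNPC, HNRNPH2 and HNRNPUL2 were each covered only by probesets that carry several symbols, and no level is given for them. HNRNPA1 was read through 1 probeset with its symbol alone, while 4 more name it together with other genes. Total RNA came from HEK293 cells, a human embryonic kidney line, infected with a lentivirus that expresses a short hairpin RNA (shRNA, or hairpin) from the U6 promoter and kept under puromycin, with 6 days given as the time, and was read on 28 Human Gene ST1.0 arrays. All groups, the controls included, share the infection, the polybrene and the puromycin. The first array series held 3 hairpins each against CLP1, DDX5, DDX17 and HNRNPL, 1 against CPSF6, and 1 control array with a hairpin against lacZ, a bacterial gene that human cells lack. The second held 3 hairpins each against PABPC1, PARP1, PRKDC and SUPT16H, and 2 lacZ arrays. The study had chosen the hairpins for their strength of knockdown. Each was read on 1 array, so the spread between the 3 arrays of a knockdown holds differences between hairpins as well as between cultures. The study asked which of these 3′ end processing factors alter the length of 3′ UTRs and the expression of genes sensitive to Aire, and the comparisons below ask how the transcripts of the splicing regulators stood after each knockdown.

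Nuclear pre-mRNA is coated by hnRNPs as it is made, and where they bind helps decide which exons and which poly(A) sites are used. Many act as silencers of splice sites, in opposition to the SR proteins, and many control their own transcripts by coupling a change of splicing to decay. CELF, MBNL, RBFOX, QKI and KHDRBS proteins give exon choice a tissue-dependent pattern, the ELAV and TIA proteins bind AU-rich or U-rich stretches, and SFPQ and NONO pair with each other in nuclear paraspeckles.

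The controls were few. The lacZ array of the first series and lacZ replicate 2 of the second differed by 0.33 on average with a standard deviation (SD) over genes of 0.06 on the log2 scale, and 0 genes lay more than 1 from that mean, whereas lacZ replicates 2 and 3 had an SD of 0.23 and the hairpins of one gene SDs of 0.16 to 0.76. These 2 were therefore treated as the same array read in both series: lacZ is 1 sample in the first series and 2 in the second, and every comparison with lacZ shares that array. The targeted gene was lower than lacZ in 3 of 3 hairpins for 8 of 8 knockdowns, by log2 differences from -2.26 to -0.57, and 5 of the 8 passed the test. The 3 that did not were CLP1 (-0.57), HNRNPL (-0.93) and DDX5 (-1.04), all of the first series. Of the HEK293 markers, VIM, KRT8, KRT18 and NEFL had medians over arrays of 8.62 to 10.30, above the median gene at 6.31, while PAX2, LHX1 and NEFM lay at 5.73 to 6.29. Of the 11 measured markers of other cells, 10 had medians of 3.60 to 6.00, and the fibroblast marker COL1A1 lay at 6.80, above the median gene. Fewer cells expressing a gene and less of its RNA per cell cannot be told apart in these bulk samples. On 3 arrays of the first series the median of 207 small nuclear and nucleolar RNA genes was far above lacZ, by 0.93 for DDX5 hairpin 3, 0.88 for DDX17 hairpin 2 and 0.96 for HNRNPL hairpin 3, against 0.02 to 0.51 on the other 9 hairpin arrays of that series, and first-series counts are also given without them.

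Over the 8 knockdowns compared with lacZ, 13 members were called in at least 1 and 23 in none, with 24 pairs of member and knockdown past the test (limma, Benjamini-Hochberg adjusted p under 0.05 over all 18417 genes). Differences are in log2 intensity, knockdown minus lacZ of the same series, each with its standard error (SE) from that fit, and counts of arrays above or below lacZ in the second series are against the mean of its 2 lacZ arrays. KHDRBS3 rose in 6 knockdowns, PCBP4 in 4 and RALY in 1, while TIAL1, HNRNPH3 and HNRNPU each fell in 2. On all 24 hairpin arrays KHDRBS3 and RALY were above lacZ, and TIAL1, HNRNPF and NONO below it. In the first series, where the shared lacZ array is the only control, its deviation cannot be told apart from a change in every knockdown. In the second, lacZ replicate 3 read 6.53 for KHDRBS3 and 8.67 for RALY, below every hairpin array of that series. It read 8.40 for TIAL1 and 9.31 for HNRNPF, above every hairpin array there. For NONO it read 10.13, with SUPT16H hairpin 2 above it at 10.20. A deviation common to the lacZ arrays was not tested. Against the other knockdowns only KHDRBS3 was called, in 2 comparisons. The other 7 called members, HNRNPA2B1, HNRNPF, HNRNPK, HNRNPR, MATR3, SFPQ and NONO, fell in PRKDC knockdown, which does not by itself set PRKDC apart from the other knockdowns. Hairpins of one gene varied little for most members: the median SD across the 3 arrays of a knockdown ran from 0.04 for RALY to 0.28 for MBNL3, with a median over members of 0.15.

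KHDRBS3 (SLM2, or T-STAR) is a STAR-family KH protein related to KHDRBS1 (Sam68) that controls neuronal and testis exons. In the first series its log2 intensity was 6.61 on the lacZ array and 6.92, 6.91 and 6.87 with the CLP1 hairpins. It was 7.21, 7.05 and 7.00 with those against DDX5. The DDX17 hairpins gave 8.02, 7.83 and 7.83, and the HNRNPL hairpins 8.17, 7.86 and 7.45. All 12 lay above lacZ, and the DDX17 and HNRNPL arrays all stood above those of CLP1 and DDX5. The rise was 1.28 ± 0.24 (SE) in DDX17 knockdown, 2.43-fold, at an adjusted p of 0.0026, and 1.21 ± 0.24 in HNRNPL knockdown, 2.32-fold, at an adjusted p of 0.0059. The call in DDX17 knockdown stood under all 9 alternatives run, and that in HNRNPL knockdown was lost in 1 of 9, with the series fitted alone (adjusted p = 0.0504). The CLP1 and DDX5 values, 0.29 and 0.47, did not pass. No alternative left out the only lacZ array of the first series. Quantile normalization over all arrays, here and below, pooled lacZ of both series as the control. KHDRBS3 then rose by 1.10 in DDX17 and 1.06 in HNRNPL knockdown. The pooled control still holds the first-series array, so what the DDX17 and HNRNPL calls owe to that array alone was not tested.

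In the second series KHDRBS3 read 6.24 and 6.53 with lacZ. The PABPC1 hairpins gave 7.15, 6.95 and 7.08 and the PARP1 hairpins 7.06, 7.43 and 7.36. Levels were 7.46, 7.22 and 7.13 with the PRKDC hairpins and 7.62, 7.20 and 7.09 with those against SUPT16H. No knockdown array overlapped lacZ, and the ranges of the 4 knockdowns overlapped one another. KHDRBS3 rose by 0.67 ± 0.19 in PABPC1 knockdown (adjusted p = 0.0351), 0.90 ± 0.19 in PARP1 (0.00488), 0.89 ± 0.19 in PRKDC (0.0026) and 0.92 ± 0.19 in SUPT16H (0.00391, all limma adjusted p), or 1.59-fold to 1.89-fold. Without lacZ replicate 2, the higher rises were 0.75, 0.74 and 0.77 and none of the 4 calls held, with adjusted p of 0.413, 0.175, 0.0765 and 0.136 in that order of knockdowns. The PABPC1 call was also lost without lacZ replicate 3 (0.0697) and without any 1 of its own hairpins (0.0541 to 0.101).

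**Figure D1:**
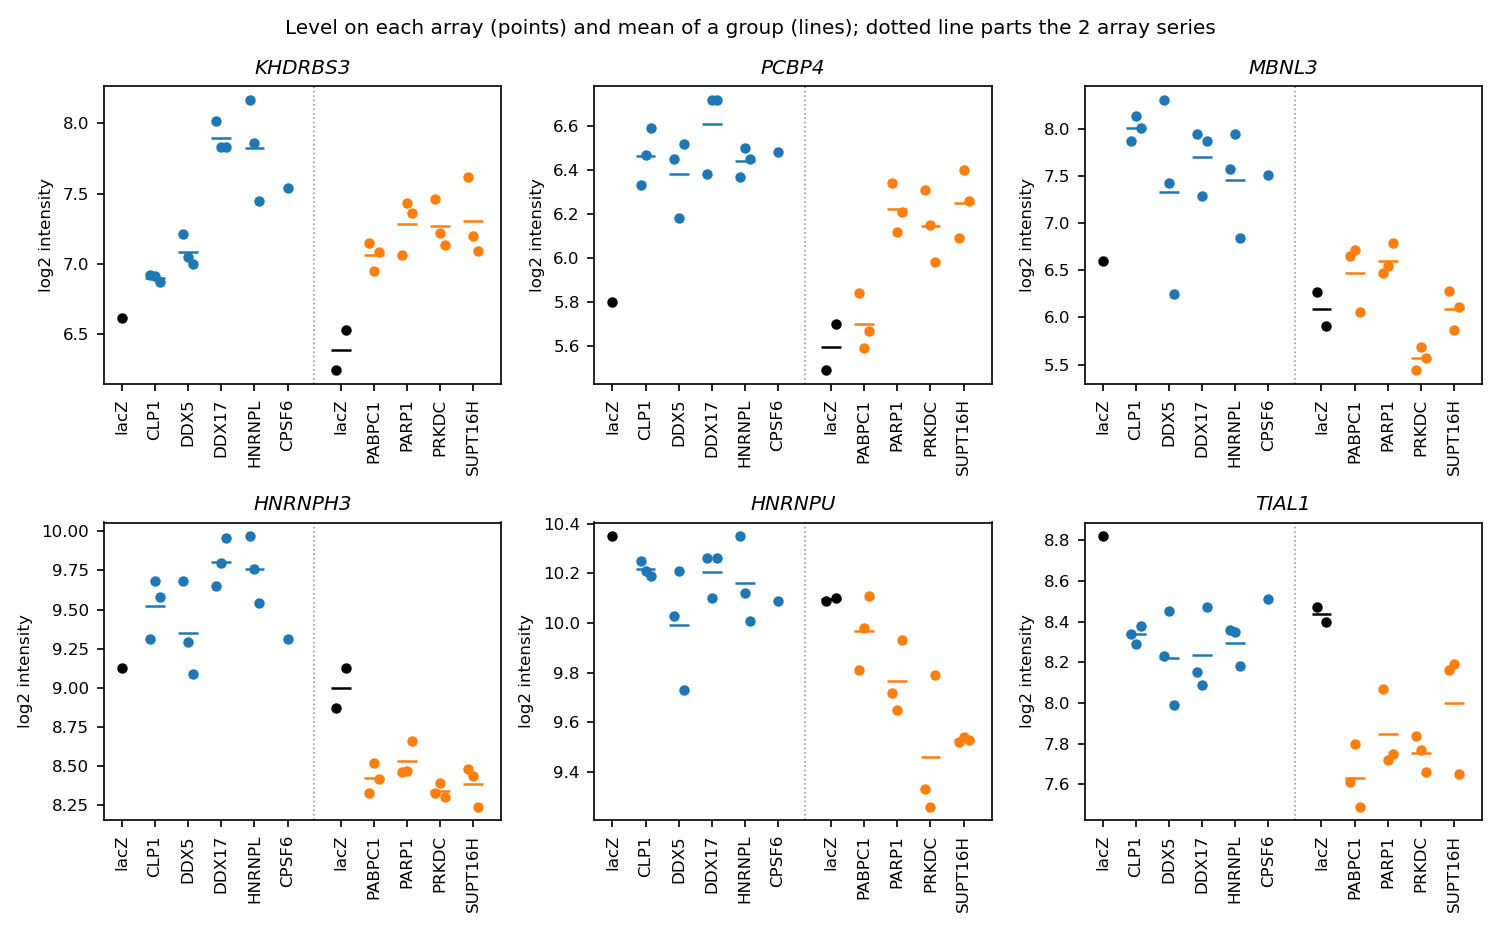
Log2 intensity on every array (points; bars are group means) for KHDRBS3, PCBP4, MBNL3, HNRNPH3, HNRNPU and TIAL1, with lacZ in black, the first series in blue and the second in orange. KHDRBS3 reaches 8.17 with HNRNPL hairpin 1 against 6.61 with lacZ, and TIAL1 lies below lacZ on every hairpin array.

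Among the KH-type poly(C)-binding proteins, PCBP4 and PCBP1 were each above the lacZ mean on 23 of 24 hairpin arrays. PCBP4, a poly(C)-binding protein linked to p53, was dim, with a mean over all arrays of 6.22 against 6.31 for the median gene. Markers of other cells such as GFAP (median 6.00) and KRT14 (5.97) lay near its levels, so this probeset is not shown to be above background. PCBP4 read 5.80 with lacZ in the first series. It read 6.33, 6.47 and 6.59 with the CLP1 hairpins, 6.45, 6.18 and 6.52 with DDX5, 6.38, 6.72 and 6.72 with DDX17 and 6.37, 6.50 and 6.45 with HNRNPL. All 12 arrays were above the control and the 4 knockdowns overlapped one another. PCBP4 rose in DDX17 knockdown by 0.81 ± 0.19 (adjusted p = 0.0199), while the values of 0.67 for CLP1, 0.58 for DDX5 and 0.64 for HNRNPL had adjusted p of 0.115, 0.189 and 0.0925. The DDX17 call was lost without DDX17 hairpin 2 (0.0714) or hairpin 3 (0.0583) and with the series fitted alone (0.112).

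In the second series PCBP4 read 5.49 and 5.70 with lacZ and 5.84, 5.59 and 5.67 with the PABPC1 hairpins, so that these overlapped. The PARP1 hairpins gave 6.34, 6.12 and 6.21, the PRKDC hairpins 6.31, 6.15 and 5.98, and the SUPT16H hairpins 6.09, 6.40 and 6.26, all above lacZ and above PABPC1. PCBP4 rose by 0.63 ± 0.15 in PARP1 knockdown (adjusted p = 0.0149), 0.55 ± 0.15 in PRKDC (0.0113) and 0.65 ± 0.15 in SUPT16H (0.0104). Leaving out lacZ replicate 2 ended each of these calls, at adjusted p of 0.311, 0.139 and 0.201. The PARP1 call was lost too without PARP1 hairpin 1 (0.0683), and the SUPT16H call without SUPT16H hairpin 2 (0.0557).

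HNRNPK, which binds C-rich RNA and DNA and acts in transcription as well as splicing, ran from -0.55 in PRKDC knockdown to 0.62 in DDX17 knockdown. Only the former passed the test. Its level in the second series was 10.74 and 10.96 with lacZ and 10.30, 10.39 and 10.21 with the PRKDC hairpins. The PRKDC arrays lay below the controls without overlap, a difference of -0.55 ± 0.20 (adjusted p = 0.0398) that did not pass without either lacZ array (0.113 and 0.211), PRKDC hairpin 1 (0.0746) or hairpin 3 (0.0859). PCBP1 and PCBP2 stabilise and regulate C-rich transcripts. PCBP1 had values of 0.11 to 0.77 per knockdown, but its lacZ arrays of the second series read 8.17 and 8.96, and 7 of the 12 hairpin arrays lay below the higher of them. The values of PCBP2, above lacZ on 17 of 24 arrays, were -0.26 to 0.41, and neither gene was called.

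The tissue-type regulators held the widest values. MBNL3, a muscleblind protein, read 6.60 with lacZ in the first series and 7.87, 8.14 and 8.01 with the CLP1 hairpins. DDX17 gave 7.94, 7.29 and 7.87 and HNRNPL 7.57, 7.95 and 6.84. The DDX5 hairpins were split, at 8.31, 7.43 and 6.25, the last below lacZ. The differences were 1.40 ± 0.46 for CLP1, 1.10 for DDX17, 0.73 for DDX5 and 0.85 for HNRNPL, and none passed the test (adjusted p = 0.20 for CLP1). Without the 3 arrays high in small RNA genes, an alternative chosen after the values were seen, MBNL3 was called higher in all 4 first-series knockdowns, by 1.40 (CLP1, adjusted p = 0.00514), 1.30 (DDX17, 0.0104), 1.27 (DDX5, 0.0257) and 1.16 (HNRNPL, 0.0264).

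With the second series' lacZ arrays MBNL3 was at 6.27 and 5.91 and it read 5.44, 5.69 and 5.57 with the PRKDC hairpins there, a difference of -0.52 that did not pass. MBNL1, the main muscleblind protein of most tissues, ranged from -0.29 in PRKDC to 0.69 in DDX17 knockdown. MBNL2 ranged from -0.66 to 0.35 and depended on single hairpins, with 7.55, 7.65 and 6.50 for those against PRKDC. CELF1 (CUGBP1) ranged from -0.50 to 0.22, CELF2 from -0.04 to 0.45, RBFOX2 from -0.44 to 0.29, QKI from -0.51 to 0.16 and KHDRBS1 from -0.43 to 0.13, with no call. In PRKDC knockdown 8 of these 9 genes had negative values and KHDRBS3 alone a positive one.

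Among the F/H proteins, which bind G-rich runs, HNRNPH3 stood opposite in the 2 series. With lacZ it read 9.13 in the first series. The levels were 9.31, 9.68 and 9.58 for CLP1, 9.68, 9.29 and 9.09 for DDX5, 9.65, 9.80 and 9.96 for DDX17 and 9.97, 9.76 and 9.54 for HNRNPL, so that 11 of 12 arrays were above the control. None of these differences passed, with 0.67 ± 0.23 for DDX17 (adjusted p = 0.116) the highest. The lacZ arrays of the second gave 8.87 and 9.13, and the hairpins 8.33, 8.52 and 8.42 for PABPC1, 8.46, 8.47 and 8.66 for PARP1, 8.33, 8.39 and 8.30 for PRKDC and 8.48, 8.44 and 8.24 for SUPT16H. All 12 were below both controls.

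HNRNPH3 fell in PRKDC knockdown by 0.66 ± 0.18 on the log2 scale (adjusted p = 0.0102) and in SUPT16H knockdown by 0.62 ± 0.18 (0.0324), and the values of -0.58 for PABPC1 (0.0538) and -0.47 for PARP1 (0.131) did not pass. Both calls were lost without lacZ replicate 2 (0.0601 and 0.133) or lacZ replicate 3 (0.0973 and 0.22) and under quantile normalization over all arrays (0.132 and 0.0878), and the SUPT16H call without its hairpin 2 (0.0721) or 3 (0.098). The series were normalized apart, and the contrast between them was not tested. HNRNPF was below lacZ on 24 of 24 hairpin arrays, with values of -0.44 to -0.19, and HNRNPH1 ranged from -0.41 to 0.18.

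The A/B-type proteins bind UAG- or AU-rich sequence and repress exons. HNRNPA2B1 was lower than lacZ in all 8 knockdowns, from -0.52 to -0.09, and fell in PRKDC knockdown alone by the test. HNRNPA0, which binds AU-rich elements, was above lacZ on 12 of 12 arrays of the first series (0.26 to 0.53 per knockdown) and on 1 of 12 of the second (-0.30 to -0.15). HNRNPA1 showed the same split less tightly, on 9 of 12 and 2 of 12 arrays, with values of -0.45 to 0.34. HNRNPAB (-0.30 to 0.06), HNRNPD, the AU-rich decay factor AUF1 (-0.32 to -0.05), and its paralog HNRNPDL (-0.37 to -0.07) stayed nearer to lacZ. RALY, a close relative of HNRNPC, was above lacZ on 24 of 24 hairpin arrays, with values of 0.18 to 0.43, and rose in PRKDC knockdown by 0.38 ± 0.14 (adjusted p = 0.0406), a call lost without either lacZ array (0.276 and 0.0673), PRKDC hairpin 1 (0.0659) or hairpin 3 (0.154).

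HNRNPU (SAF-A), a scaffold protein that ties chromatin to nuclear RNA, read 10.35 with lacZ in the first series. The CLP1 hairpins gave 10.25, 10.21 and 10.19, DDX5 10.03, 10.21 and 9.73, DDX17 10.26, 10.10 and 10.26, and HNRNPL 10.35, 10.12 and 10.01, none above the control. The second series gave lacZ levels of 10.09 and 10.10, and for PABPC1 9.81, 9.98 and 10.11, PARP1 9.72, 9.65 and 9.93, PRKDC 9.33, 9.26 and 9.79 and SUPT16H 9.52, 9.54 and 9.53. The PRKDC and SUPT16H arrays were lowest and did not overlap lacZ. HNRNPU fell by 0.64 ± 0.18 on the log2 scale in PRKDC knockdown (adjusted p = 0.0112) and by 0.56 ± 0.18 in SUPT16H knockdown (0.0438). Without lacZ replicate 2 these were at 0.0939 and 0.248, without replicate 3 at 0.0586 and 0.165, and the SUPT16H call did not hold without any 1 of its hairpins (0.0802 to 0.10) nor the PRKDC call under quantile normalization over all arrays (0.0672).

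MATR3, a nuclear matrix protein that represses exons, was below lacZ in all 8 knockdowns, from -0.69 to -0.17. HNRNPR, which acts in mRNA transport, was below lacZ on 12 of 12 arrays of the second series and 7 of 12 of the first, with values of -0.67 to 0.25. SYNCRIP (hnRNP Q), its close paralog, had positive values in all 8 knockdowns, from 0.04 to 0.39, with no call. HNRNPM ranged from -0.44 to 0.40, and its PRKDC hairpins disagreed, at 8.73, 8.78 and 10.15 against 9.32 and 9.46 with lacZ. HNRNPUL1, an HNRNPU-like protein, had values of -0.35 to -0.06.

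TIAL1 (TIAR), a U-rich and AU-rich RNA-binding protein of splicing and stress granules, was below lacZ on every hairpin array. It read 8.82 with lacZ in the first series, against 8.34, 8.29 and 8.38 with CLP1 hairpins, 8.23, 8.45 and 7.99 with DDX5, 8.15, 8.09 and 8.47 with DDX17 and 8.36, 8.35 and 8.18 with HNRNPL. These differences of -0.60 to -0.49 did not pass. In the other series it read 8.47 and 8.40 with lacZ, 7.61, 7.80 and 7.49 with PABPC1 hairpins, 8.07, 7.72 and 7.75 with PARP1, 7.84, 7.77 and 7.66 with PRKDC and 8.16, 8.19 and 7.65 with SUPT16H. The arrays of the 4 knockdowns overlapped one another and never reached lacZ.

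TIAL1 fell by 0.80 ± 0.18 on the log2 scale in PABPC1 knockdown (adjusted p = 0.00938) and by 0.68 ± 0.18 in PRKDC knockdown (0.00907), while -0.58 for PARP1 (0.0552) and -0.43 for SUPT16H (0.118) did not pass. Without lacZ replicate 2 both calls ended (0.171 and 0.0951), the PRKDC call also under quantile normalization over all arrays (0.103), and the PABPC1 call without lacZ replicate 3 (0.058) or PABPC1 hairpin 3 (0.0507). Its paralog TIA1 moved otherwise, from -0.13 in PRKDC to 0.52 in DDX17 knockdown with no call. ELAVL1 (HuR), which stabilises AU-rich transcripts, ranged from -0.21 to 0.39.

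Of the FET and paraspeckle proteins, NONO was below the lacZ mean on 24 of 24 hairpin arrays, with values of -0.62 to -0.19, and its partner SFPQ on 23 of 24, with values of -0.74 to -0.10. Single controls overlapped the hairpins in both genes: NONO read 10.20 with SUPT16H hairpin 2 against 10.50 and 10.13 with lacZ, and SFPQ 10.38 and 10.41 with PABPC1 hairpins 2 and 3 and 10.31 with PARP1 hairpin 3 against 10.27 and 10.57. TAF15 and EWSR1, of the FET family that joins transcription to splicing, ranged from -0.46 to 0.64 and from -0.25 to 0.08, with no call. TAF15 was above lacZ on 12 of 12 arrays of the first series and 1 of 12 of the second.

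Counted by knockdown, the first series had few calls. HNRNPL knockdown raised 1 of 36 members (KHDRBS3), or 2.78%, against 0.7% of all genes that rose, and lowered 0 against 1.13% of all genes, with 7 members higher and 1 lower at an unadjusted p under 0.05 (13.2% of all genes in either direction). In DDX17 knockdown 2 members (KHDRBS3 and PCBP4) rose, or 5.56% against 1.22% of all genes, and 0 fell against 1.56%, with 7 higher and 1 lower at an unadjusted p under 0.05 (14.7% of all genes). CLP1 and DDX5 knockdown called 0 members, where 0.956% and 0.842% of all genes rose or fell. At an unadjusted p under 0.05, limma gave 3 members higher and 1 lower for CLP1 (9.2% of all genes in either direction) and 1 higher and 1 lower for DDX5 (11.4% of all genes). The members' median was 0.15 for CLP1, 0.13 for HNRNPL, -0.07 for DDX5 and 0.15 for DDX17, where that of all genes lay between -0.01 and 0.02. Under quantile normalization over all arrays the members' median was 0.01, 0.13, -0.04 and -0.03 in that order of knockdowns. Without the 3 arrays high in small RNA genes, HNRNPL knockdown called 4 members higher, adding HNRNPH3, MBNL3 and PCBP1 to KHDRBS3, and CLP1 and DDX5 knockdown 1 each, MBNL3.

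In the second series PABPC1 knockdown raised 1 member (KHDRBS3), or 2.78% against 1.73% of all genes, and lowered 1 (TIAL1) against 4.02% of all genes. PARP1 knockdown raised 2 (KHDRBS3 and PCBP4), or 5.56% against 2.46%, and lowered 0 against 2.98%, with 4 higher and 5 lower at an unadjusted p under 0.05 (19.8% of all genes). SUPT16H knockdown raised the same 2 genes (3.77% of all genes rose) and lowered HNRNPH3 and HNRNPU, 5.56% of members against 5.76% of all genes. The members' medians were -0.11, -0.14 and -0.12, with 24, 23 and 26 of 36 values negative, and those of all genes 0.04, 0.04 and 0.07. Under quantile normalization over all arrays the members' medians were 0.06 for PABPC1, 0.01 for PARP1 and -0.00 for SUPT16H. These 3 knockdowns share their lacZ arrays, and apart from the KHDRBS3 and PCBP4 rises their shares of members called were near the background.

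Knockdown of PRKDC, the kinase (DNA-PK) that acts in the joining of broken DNA ends, gave the highest number of calls among the members and among all genes. Of 36 members 10 fell, or 27.8% against 16.1% of all genes, and 3 rose, or 8.33% against 19.6%. In all, 31 members had negative values, with a median of -0.36 where that of all genes was 0.10. Under quantile normalization over all arrays, with lacZ of both series pooled as the control, the members' median in PRKDC knockdown was -0.05. The members were also brighter than most genes. Their median level was 8.55, 8.60 and 8.78 with the PRKDC hairpins, above the median gene at 6.31. Whether other genes as bright shifted alike was not tested. SFPQ read 9.48, 9.39 and 10.17 with the PRKDC hairpins and 10.27 and 10.57 with lacZ, and fell by 0.74 ± 0.21 on the log2 scale, 1.67-fold (adjusted p = 0.0134). MATR3 read 8.52, 8.76 and 9.15 against 9.71 and 9.30 and fell by 0.69 ± 0.26 (0.0403). Neither overlapped its controls, and in both genes hairpin 3 lay nearest to them.

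The other members that fell had differences of -0.67 ± 0.16 for HNRNPR (adjusted p = 0.00545), -0.61 ± 0.24 for NONO (0.0491), -0.52 ± 0.17 for HNRNPA2B1 (0.023) and -0.44 ± 0.16 for HNRNPF (0.0351), beside HNRNPK, HNRNPH3, HNRNPU and TIAL1 above. By group, 3 of 6 measured M, R, U-type genes and matrin fell, 2 of 3 F/H-type, 2 of 4 FET and paraspeckle, 1 of 6 A/B-type, 1 of 4 KH-type, 1 of 3 AU- and U-binding and 0 of 9 tissue-type genes. Every 1 of the 13 calls was lost without lacZ replicate 2, which leaves 1 control array, and 4 were left without lacZ replicate 3 (KHDRBS3, PCBP4, HNRNPR and TIAL1). Quantile normalization over all arrays left 5 calls, 3 rises and 2 falls. Without PRKDC hairpin 3 there were 14 calls, 12 of them falls. The small RNA genes were above lacZ by 0.58, 0.64 and 0.30 on the 3 PRKDC arrays, where the members' medians were -0.37, -0.36 and -0.28, and their part in the result was not tested.

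**Figure D2:**
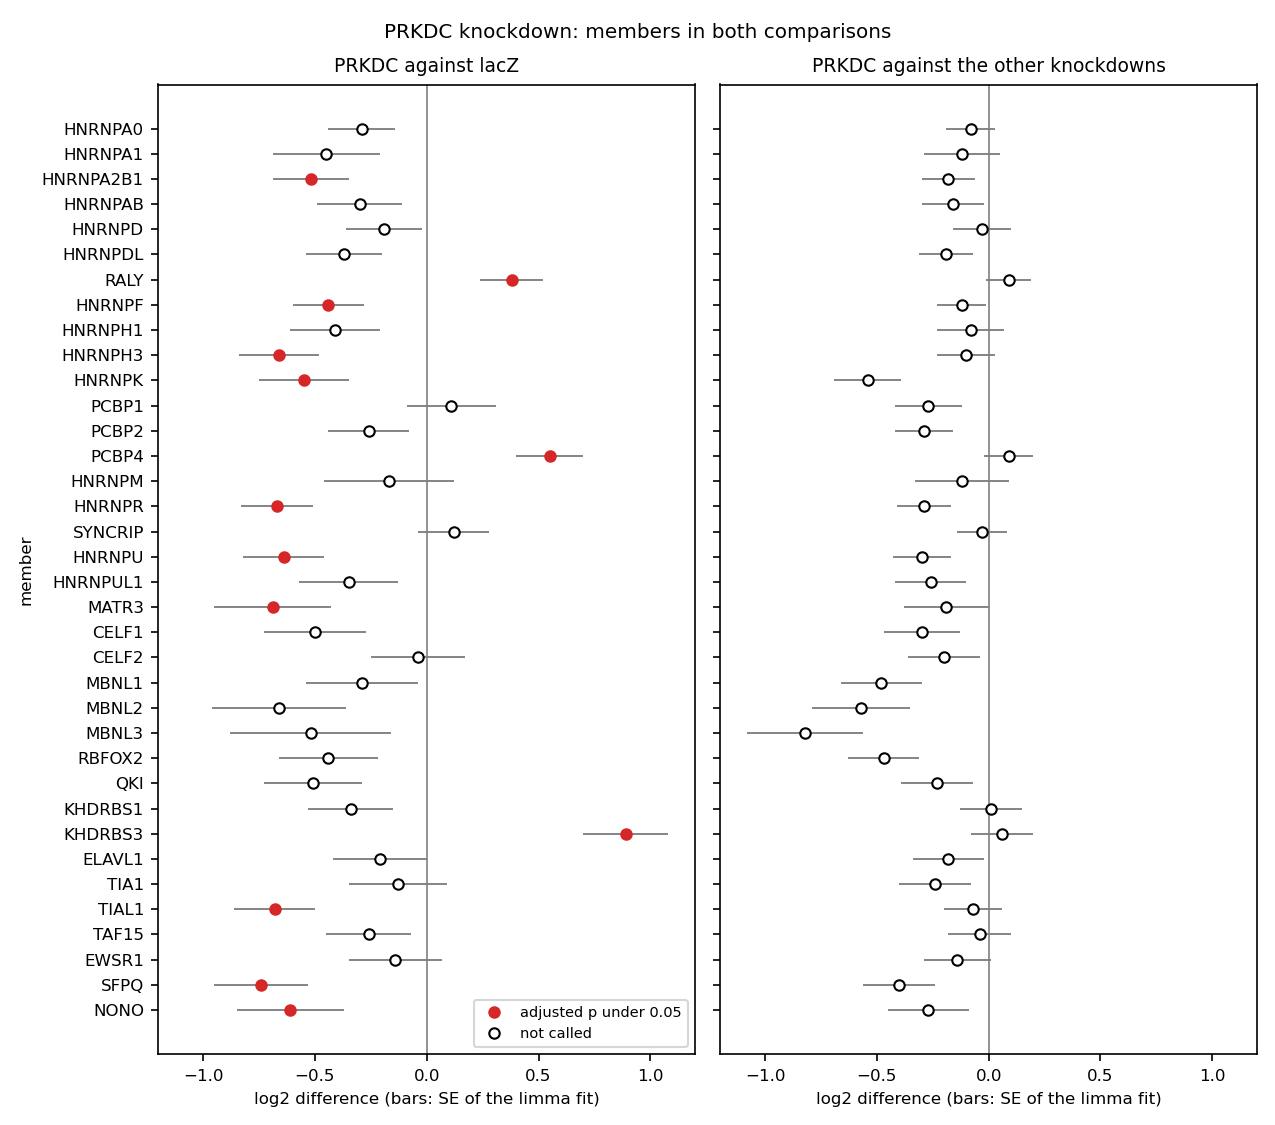
Log2 difference of each of 36 members in PRKDC knockdown (n = 3 hairpins) from lacZ (left, n = 2) and from the mean of the PABPC1, PARP1 and SUPT16H knockdowns (right), with SE as bars and called members in red. On the left 13 members are called and on the right 0, although 32 of the 36 values on the right are negative.

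Promoters of the genes that fell in PRKDC knockdown were read from RefSeq (GRCh38.p14), over 250 bases before to 50 after the annotated start, because these genes moved together. The table held 29 of the 36 members and 9 of the 10 that fell. The letters CCAAT, or ATTGG on the other strand, were found in 6 of those 9 promoters and in 2 of the 20 other members (HNRNPA0 and HNRNPAB), and in 35.7% of 27305 promoters of all genes. Members were compared after their changes were known, and a match of letters is no binding site. CCGGAAG or its complement CTTCCGG was found in 1 of the 9 and 4 of the 20 (10.7% of all promoters), TATAAA or TTTATA in 0 and 3 (12%), CTCGCGAG, the same on both strands, in 1 and 1 (1.06%), and TGACG or CGTCA in 2 and 6 (25%). The match nearest to the start is shown for each of the 6 in 30 bases, 5′ to 3′ along the gene's strand, with its letters in capitals.
HNRNPA2B1, chr7:26200830-26200859, - strand: agccttcccgccATTGGcggcggatagggc
HNRNPF, chr10:43408915-43408944, - strand: caggcgctgaggATTGGggccggcagcgcg
HNRNPH3, chr10:68331443-68331472, + strand: cgcgcggcacATTGGgacgaagcgcgctgg
HNRNPR, chr1:23344455-23344484, - strand: gcagcttcatcgATTGGctctcgagtcgtc
HNRNPU, chr1:244864709-244864738, - strand: tgctcagtcccaATTGGaagcgcactgcgc
NONO, chrX:71283569-71283598, + strand: cagtttagctaaCCAATcgagaacgccatt
The match began 101 bases before the annotated start in HNRNPA2B1, 75 in HNRNPF, 240 in HNRNPH3, 188 in HNRNPR, 183 in HNRNPU and 54 in NONO. HNRNPK, MATR3 and TIAL1 had none in the window.

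Against the mean of the other 3 knockdowns of the same series, which leaves lacZ out, KHDRBS3 was the 1 member called. It fell in CLP1 knockdown by 0.70 ± 0.14 on the log2 scale (limma, adjusted p = 0.0154), 1 of 36 members where 0.239% of all genes fell, and rose in DDX17 knockdown by 0.62 ± 0.14 (0.0233), 1 of 36 where 0.44% of all genes rose. Each comparison holds the knockdowns of the other, so the pair is not independent. Both calls were lost when any 1 of the 3 own hairpins was left out, with adjusted p of 0.0792 to 0.21 for CLP1 and 0.111 to 0.142 for DDX17, and with the series fitted alone (0.155 and 0.141), and the latter without the 3 arrays high in small RNA genes (0.0753).

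No member passed in the other 6 comparisons of this kind. The shares of all genes called there were 0.0977% for HNRNPL, 0.038% for DDX5, 0.0869% for PABPC1, 0.554% for PARP1, 0.0869% for PRKDC and 0.0109% for SUPT16H. At an unadjusted p under 0.05, limma gave 5 members higher and 0 lower for HNRNPL (8.53% of all genes in either direction), 0 and 4 for DDX5 (9.2%), 5 and 1 for PABPC1 (10.3%), 4 and 0 for PARP1 (18.6%), 0 and 9 for PRKDC (24.5%) and 1 and 2 for SUPT16H (8.98%). The member with the smallest p was KHDRBS3 for HNRNPL (0.53 ± 0.14, adjusted p = 0.205) and for DDX5 (-0.45 ± 0.14, 0.441). For PABPC1 it was PCBP4 (-0.51 ± 0.11, 0.0637), whose 3 PABPC1 arrays lay below the 9 of the other knockdowns. For PARP1 it was TIA1 (0.50 ± 0.16, 0.14), at 8.68, 8.43 and 8.72 with the PARP1 hairpins. HNRNPK came first for PRKDC (-0.54 ± 0.15, 0.111) and MBNL2 for SUPT16H (0.77 ± 0.22, 0.261), at 8.49, 8.26 and 7.97 with the SUPT16H hairpins. Without DDX5 hairpin 1, 7 members fell in DDX5 knockdown against the other knockdowns, ELAVL1, HNRNPH3, KHDRBS3, MATR3, MBNL1, MBNL2 and MBNL3, and without HNRNPL hairpin 3 KHDRBS3 rose in HNRNPL knockdown (0.0422). With each series fitted alone, 5 members fell in PRKDC knockdown, 3 rose in PARP1 knockdown (TIA1, CELF2 and MBNL3), and PCBP4 fell in PABPC1 knockdown (0.0454, and 0.0289 under quantile normalization over all arrays).

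**Figure D3:**
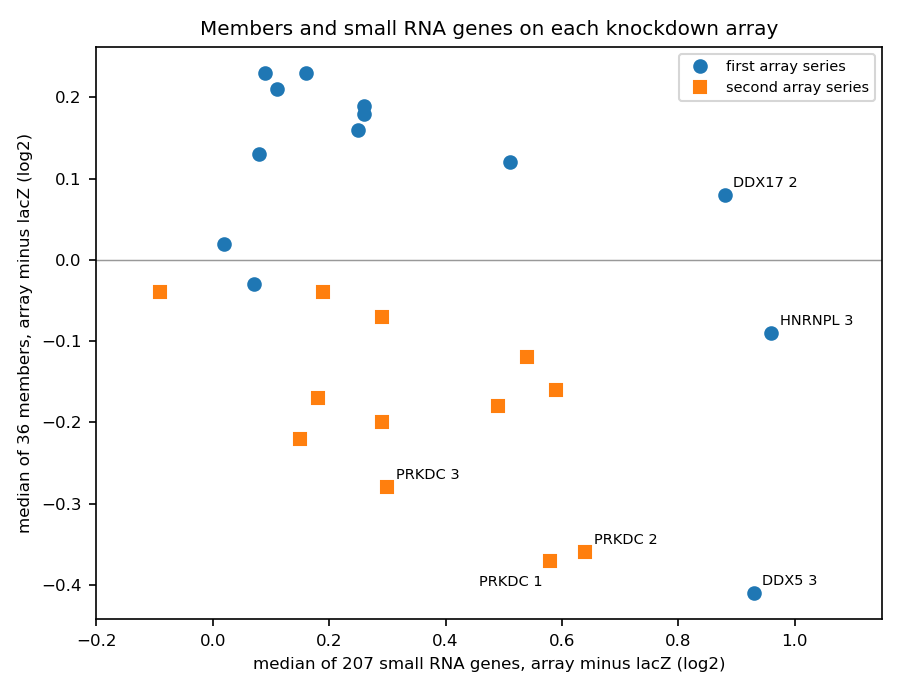
Median log2 difference from lacZ of 36 members (vertical) against that of 207 small RNA genes (horizontal) for 25 knockdown arrays, 13 in the first series (circles) and 12 in the second (squares). DDX5 hairpin 3 has the lowest members' median, -0.41, at a small RNA median of 0.93, next to the PRKDC arrays at -0.37 to -0.28.

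The 3 arrays with high small RNA levels differed among themselves in the members. DDX5 hairpin 3 had 10 of 36 members above lacZ and a median of -0.41, with hairpins 1 and 2 at 0.18 and 0.12. HNRNPL hairpin 3 had a median of -0.09 against 0.23 and 0.16 for its fellows, whereas DDX17 hairpin 2, at 0.08, stood close to 0.13 and 0.19. MBNL1 (7.84 against 9.15 and 8.63), MATR3 (8.69 against 10.07 and 9.50) and NONO (9.42 against 10.56 and 10.35) were among the members low on DDX5 hairpin 3. What part the small RNA levels had in these values was not tested.

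The single CPSF6 array, a knockdown of a cleavage factor I subunit that affects the choice of poly(A) site, allows no test. Its members differed from lacZ by -0.58 (HNRNPDL) to 0.93 (KHDRBS3), with a median of -0.03 against -0.02 for all genes and 18 of 36 above lacZ. KHDRBS3 read 7.54, between the CLP1 and DDX5 arrays and those of DDX17, and MBNL3 7.51. HNRNPA0 (8.57), HNRNPDL (8.86), HNRNPM (9.53) and TAF15 (10.25) were lower there than on all 12 hairpin arrays of the series, and TIAL1 (8.51) was higher than on all 12.

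Related splicing genes were read from 3 lists. Of the 15 measured neuronal or epithelial regulators, ELAVL3, a neuronal paralog of ELAVL1, fell against lacZ in all 8 knockdowns, with log2 differences of -2.06 to -1.55. Its means were 5.05 to 5.42 in the knockdowns, against 7.24 with lacZ in the first series and 6.75 in the second. It was not called against the other knockdowns. In the first series a high reading with its only lacZ array and a fall in every knockdown cannot be told apart. In the second, every hairpin array lay below both lacZ arrays, including replicate 3, which the first series does not share. A deviation common to the lacZ arrays was not tested. In this list 0 others were called outside PRKDC knockdown. In the latter 6 rose, beside 19.6% of all genes, CELF3 (0.44), CELF4 (0.55), CELF5 (0.46), KHDRBS2, NOVA2 (0.66) and RBFOX1, the CELF and KHDRBS genes among them relatives of members that did not rise there, except KHDRBS3. KHDRBS2 (4.42 against 3.94 with lacZ) and RBFOX1 (4.45 against 4.12) lay at the level of the liver and erythroid markers ALB and HBB (medians of 4.40 and 4.38), so these probesets are not shown to be above background. The same holds for CELF3 (5.87 against 5.43), CELF4 (6.07 against 5.53) and CELF5 (5.99 against 5.53). They lay below the median gene at 6.31, near the astrocyte marker GFAP (6.00) and the muscle marker MYH7 (5.60). Of the 13 SR proteins and SR-like factors, 5 fell in PRKDC knockdown, beside 16.1% of all genes, SRSF1 (-0.64), SRSF3 (-0.90), SRSF5 (-0.68), SRSF11 (-0.81) and TRA2A (-0.80), and 0 rose. In that knockdown the list's median was -0.46 for the SR proteins and 0.30 for the neuronal or epithelial regulators, beside 0.10 for all genes. SRSF11 fell in PABPC1 knockdown (-0.76, adjusted p = 0.0493) and TRA2A in SUPT16H knockdown (-0.73, 0.027). Of the 5 HNRNPL and PTB genes, PTBP2, the neuronal PTB, fell in PRKDC knockdown (-0.64, 0.0481), and in CLP1 knockdown it rose against the other knockdowns (0.79 ± 0.18, 0.0445).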

How the data were processed

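The deposited values are probeset intensities on a linear scale, made by the authors from Human Gene ST1.0 scans by robust multi-array averaging (RMA) in aroma.affymetrix. The array medians of 61.5 to 74 for series 1 and 54.5 to 58.3 for series 2 show separate normalization. Probesets with exactly 1 symbol in the platform annotation were kept (19460 of 33252; 1754 had several and 12038 none), and the brightest of them on average stood for its gene. Analysis was on the log2 scale, without a pseudocount or a filter on dim genes. Groups and hairpin numbers came from the sample labels. The sample titles name no series, but the array medians above part the arrays into the 2 series. Limma 3.58.1 in R 4.3.3 (lmFit, eBayes with an intensity trend) was fitted once over all 28 arrays and 18417 genes, with 1 mean per knockdown and 1 lacZ mean per series (17 residual degrees of freedom). Each knockdown with 3 hairpins was compared with lacZ of its series and with the mean of the other 3 knockdowns of its series. Tests were two-sided, Benjamini-Hochberg adjusted across the 18417 genes, with calls made under 0.05. The script was tested on simulated data. Members named in full were those called in 2 or more of the 16 comparisons, up to 3 called members per comparison with the largest difference and, where none was called, the one with the smallest p. The members and lists were chosen with earlier results of these data known. Knockdown arrays are each a hairpin of their own and the lacZ arrays repeat 1 control, so the p-values reflect the spread between hairpins and cultures together. The number of arrays limits the precision. Alternatives were each series fitted alone, quantile normalization over all arrays with no series term, median centring, dim genes left out, a mean over probesets, the hairpin number as a block, and single arrays left out. The quantile setting also compared every knockdown with lacZ pooled over both series, the array read in both being averaged into 1. Its changes therefore hold a change of control as well as of normalization. The arrays left out in turn were those of the 8 tested knockdowns and the lacZ arrays of the second series. The first-series lacZ array and the CPSF6 array were not among them.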

Additional observations from a re-analysis of the deposited data

How the results depend on the processing

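Counts of members called changed with the processing as follows. With each series fitted alone, 0 members were called in HNRNPL against lacZ, 1 in DDX17, 6 in PABPC1, 4 in PARP1, and against the other knockdowns 0 in CLP1, 0 in DDX17, 1 in PABPC1, 3 in PARP1 and 5 in PRKDC. Quantile normalization over all arrays with no series term gave, against lacZ, 1 in CLP1, 2 in HNRNPL, 8 in DDX17 and 5 in PRKDC, and against the other knockdowns 1 in PABPC1 and 1 in PRKDC. Leaving out dim genes, PCBP4 among them, gave 1 in DDX17 and 1 in PARP1 against lacZ. Without the 3 arrays high in small RNA genes, chosen after seeing the data, the counts against lacZ were 1 for CLP1, 4 for HNRNPL and 1 for DDX5, and against the other knockdowns 1 for HNRNPL and 0 for DDX17. Hairpin numbers name different sequences in different genes and did not pair the arrays (correlation of deviations above 0.1 in 8 of 18 same-number pairs of the first series and 7 of 18 of the second), and with the number as a block the counts against the other knockdowns were 0 for CLP1, 0 for DDX17, 3 for PARP1 and 7 for PRKDC. Leaving out 1 array at a time, the counts against lacZ ran from 1 to 2 for DDX17, 0 to 1 for PABPC1, 0 to 2 for PARP1, 0 to 14 for PRKDC and 0 to 3 for SUPT16H, with each 0 in the last 3 reached without lacZ replicate 2. Against the other knockdowns they ran from 0 to 0 for CLP1 and DDX17, 0 to 1 for HNRNPL and 0 to 7 for DDX5. Fitting each series alone left the differences themselves as they were, such as 1.21 for KHDRBS3 in HNRNPL knockdown, and altered the estimate of their spread. MBNL3 in CLP1 knockdown likewise stayed at 1.40 without the 3 arrays high in small RNA genes. The cause of the other changes was not tested. Of 324 values of single members under an alternative, 234 kept direction and side of the threshold, 81 lost the call, 9 gained it and 0 reversed. These single members were the called ones and, where a comparison called none, the member with the smallest p. Only the called ones could lose a call, so the 234 include values that had none to lose. Gains by members outside this choice are not counted here. With 1 or 2 control arrays, differences from lacZ carry that array's own deviation, and values near the background of the scans understate a change.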
